A study of Mus musculus with 6 samples.

Results

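The genes that encode the proteins of the cytosolic ribosome were examined by RNA-seq in the anterior prostate (AP), taken whole, of mice with over-expression of the Notch1 intracellular domain (N1ICD). The members were chosen by gene symbol, as Rpl, Rplp, Rps or Rpsa with a number where the name has one, and 89 of the 55076 rows of each table matched. Of these, 77 were core subunit genes, 6 were protein-coding paralogs of core genes and 6 were annotated as pseudogenes. The OEx group held 3 male Pbsn-Cre Rosa26 N1ICD/+ mice of 20 weeks, in which the probasin promoter drives Cre in prostatic epithelial cells and so turns on N1ICD there. The Ctrl group held 3 males of the same age which, per the paper, carry the same Rosa26 N1ICD/+ allele without Cre, and which the labels call wild type. Libraries were made from total RNA of the whole organ after the secretions had been cleaned away, so epithelium, stroma and other cells were measured together, and fewer cells of a type cannot be told apart from less RNA per cell. The family was put forward with results of these data known, and its counts below are a description.

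The cytosolic ribosome consists of a large subunit, which joins amino acids, and a small subunit, which reads the message. Each subunit is built from ribosomal RNA and 1 copy of most of its proteins, so the genes of both subunits are usually transcribed at similar rates and their messages are among the most abundant of a cell. Their messages start with a run of pyrimidines, the terminal oligopyrimidine (TOP) tract, through which growth signals set their translation. Secretory cells such as those of the prostate translate large amounts of protein. Rpl19, a protein of the large subunit, also served as the reference gene for the qPCR of the study.

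Ribosomal protein genes were lower in OEx than in Ctrl mice at the deposited scaling, in both subunits. The median of the 85 members with a mean of at least 1 FPKM (fragments per kilobase of exon, scaled to library size) was 348, 325 and 302 FPKM in the OEx mice. Ctrl mice had medians of 618, 602 and 722 FPKM. The OEx mice thus sat below every Ctrl mouse, at 325 ± 22.6 against 647 ± 65.5 FPKM (SD, n = 3). The fitted median log2 fold change, OEx minus Ctrl on the log2(FPKM + 1) scale, was -1.05 for the large and -1.06 for the small subunit, against -0.08 over all 12833 genes tested. Summed over members, FPKM of the large subunit was 1.40, 1.39 and 1.45 times that of the small subunit in OEx mice and 1.52, 1.52 and 1.58 times in Ctrl mice. These within-mouse ratios did not overlap and were lower in OEx mice, while the median log2 fold changes of the subunits were nearly equal. The sum follows its most abundant genes. Rplp1 alone had 1854, 1938 and 1891 FPKM in OEx and 5173, 5049.8 and 10651 FPKM in Ctrl mice. Large subunit sums ran from 17595 to 19958 FPKM in OEx and from 40316 to 53716 FPKM in Ctrl mice. The ratios were not compared without Rplp1, so their lack of overlap is not read as a difference between the subunits. The medians of the large and the small subunit turned to 0.12 and 0.15 when mice were scaled to equal Rpl19. A gene was called when limma gave an FDR under 0.05 and a fold change above 2. Of the 85 tested members, 49 were called lower, where 15.7% of all tested genes were, and 0 were called higher, where 12.9% were. In limma, 77 of the 85 had an FDR under 0.05 in the lower direction (36.5% of all tested genes) and 0 in the higher direction. In 78 members every OEx value lay under every Ctrl value, which held for 38.9% of all tested genes.

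**Figure D1:**
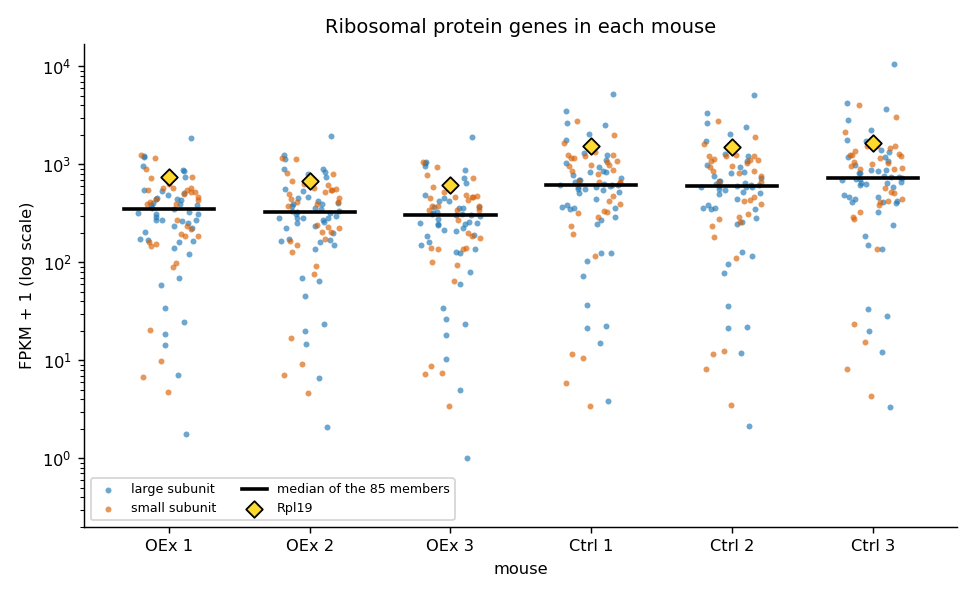
FPKM + 1 on a log axis for the 85 tested members in each mouse, with large subunit genes in blue, small subunit genes in orange, a black line at the median and a yellow diamond at Rpl19. The medians lie at 302 to 348 FPKM in OEx and at 602 to 722 FPKM in Ctrl mice, and the diamond lies above the median in every mouse.

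How far the family was lower depended on how the mice were scaled to each other. OEx libraries held 14772005 to 17009325 recovered reads and Ctrl libraries 17236735 to 18655462. The library size used for the deposited values was larger than this total in OEx mice (1.22 to 1.34 times) and smaller in Ctrl mice (0.726 to 0.815 times). It lay within 0.347% of a size factor taken as the median ratio over genes. Only 5.90% to 7.71% of reads fell on the 20 most abundant genes in OEx mice, against 25.96% to 33.8% in Ctrl mice. As a plain share of recovered reads, the 89 members held 7.73%, 7.63% and 6.14% in the OEx mice and 7.89%, 7.72% and 10.8% in the Ctrl mice. Here the groups overlapped, since OEx replicate 1 lay above Ctrl replicate 2. The 20 most abundant genes include 3 members, Rpl10, Rplp0 and Rps14. With these 20 genes left out of both the members and the total, the share was 7.42%, 7.30% and 5.93% in OEx mice. In Ctrl mice it was 10.5%, 10.3% and 12.9%, with no overlap.

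Under library totals, 1 member was called lower (4.59% of all tested genes) and the median of the members was -0.28, while the median over all genes stood at 0.56. Relative to the median over all genes, the members' median lay between -1.09 and -0.65 under the deposited scaling and all 17 alternatives. Alternatives that only rescale a mouse multiply all its genes by 1 factor. Apart from the pseudocount they cannot move this difference, so they are no check of it. The member called under library totals was Rplp1. With a trend on exon length removed from each mouse, 9 members were called lower (11.2% of all tested genes) at a median of -0.68. With a trend on GC content removed, 28 were called lower (11.9%) at a median of -0.88.

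**Figure D2:**
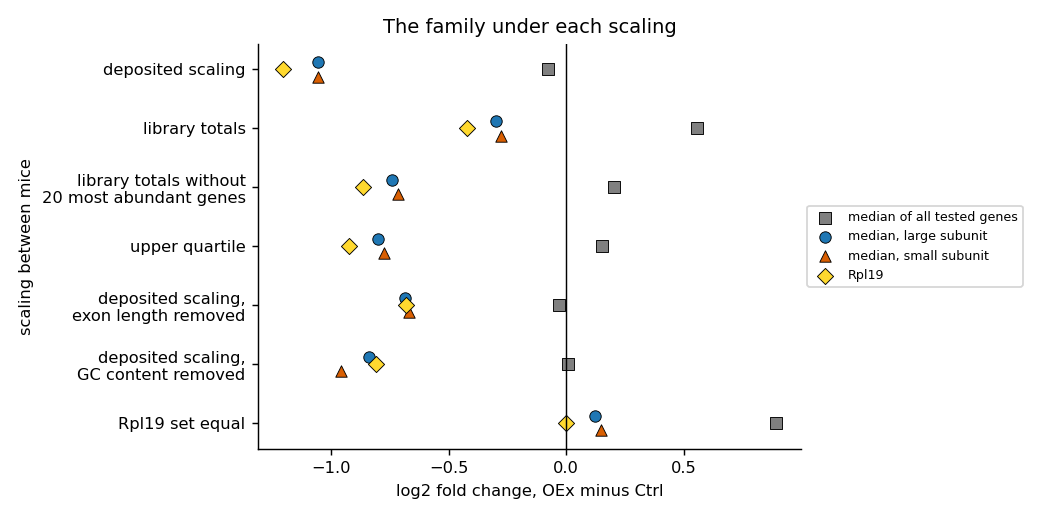
Log2 fold change (OEx minus Ctrl) of the median of all tested genes (grey squares), the medians of both subunits (blue circles and orange triangles) and Rpl19 (yellow diamonds) under 7 ways to scale or correct the mice. The subunit medians lie left of the grey square in every line and left of 0 in all but the last, where Rpl19 is set equal and they lie at 0.12 and 0.15.

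Several marker lists and single mice also differed, and their part in the values of the family was not tested. Notch1, which checks the transgene, stood at 41.9, 47.6 and 78.9 FPKM in OEx mice against 5.18, 5.55 and 3.34 in Ctrl mice. The summed level of the 6 prostate epithelium markers was 2908 to 6157 FPKM in OEx and 24762 to 25014 FPKM in Ctrl mice. Their log2 fold changes ran from -5.44 to -0.43, so the sum does not stand for each marker. Of the 6, 4 were called lower, where 15.7% of all tested genes were. The 3 basal markers, all called lower, summed to 3.72 to 5.32 FPKM against 99.4 to 122. The 8 smooth muscle and fibroblast markers summed to 372 to 651 FPKM in OEx and 1087 to 2320 FPKM in Ctrl mice, a sum set by its abundant genes, since 5 of the 8 had log2 fold changes below 0 and 3 above, and 4 had overlapping groups. The 4 endothelial markers summed to 5.83 to 7.02 FPKM against 11.4 to 16.6, though 0 of them were called and 1 had overlapping groups. The 10 immune markers summed to 207, 191 and 16.4 FPKM in OEx and 30.9, 32.5 and 70.9 FPKM in Ctrl mice, with Cd79a listed at 0 in OEx replicate 3 and in Ctrl replicates 1 and 2. Ctrl replicate 3 carried seminal vesicle genes, 16128 FPKM over 8 markers where no other mouse had more than 4.36. That mouse had the highest value for 72 of the 85 tested members, and OEx replicate 3 had the lowest for 75. Without Ctrl replicate 3, 39 members were called lower at a median of -0.95, and without OEx replicate 3, 40 at -0.97. In these fits 2037 and 2032 of the 12833 genes tested were called lower. Of the 49 called with all mice, 37 were called in each of the 6 fits that left out 1 mouse.

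In the large subunit, 29 of 50 tested members were called lower (15.7% of all tested genes), with log2 fold changes from -1.78 to -0.01. The stalk proteins bind elongation factors, and all 3 of their genes were called lower. From the lowest log2 fold change, Rplp1 ranked 1, Rplp0 20 and Rplp2 29 of 85 tested members. Rplp1 was the most abundant member per length, at 1854, 1938 and 1891 FPKM in OEx mice and 5173, 5049.8 and 10651 FPKM in Ctrl mice. The OEx mice were close to each other and the Ctrl mice were not, since Ctrl replicate 3 had 2.08 times the mean of the other 2. The log2 fold change of Rplp1 was -1.78 ± 0.30 (SE, limma FDR 0.00186), and -1.43 without Ctrl replicate 3. Rplp0, which anchors the stalk on the large subunit, had 1176, 1139 and 1057 FPKM in OEx and 2671, 2646 and 2822 FPKM in Ctrl mice. Its mice were tight in both groups, with a log2 fold change of -1.27 ± 0.10 (limma FDR 1.05e-04). Rplp2, the partner of Rplp1, had a log2 fold change of -1.19 ± 0.13 at a lower level, 255 ± 35.6 against 581 ± 47.5 FPKM (SD, n = 3).

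Rpl36 and Rpl41, both short proteins of the large subunit, were also among the 5 members with the highest mean FPKM and the 5 with the lowest log2 fold change. Rpl36 had 1204, 1259 and 1029 FPKM in OEx and 3497, 3356 and 4244 FPKM in Ctrl mice, and was called at -1.66 ± 0.15 (limma FDR 1.24e-04). Rpl41 had 876, 892 and 728 FPKM in OEx and 2505, 2432 and 3707 FPKM in Ctrl mice, and was called at -1.77 ± 0.19 (limma FDR 3.02e-04). In both genes the lowest Ctrl mouse had more than 2 times the highest OEx mouse. Rpl21 was lower to the same extent (-1.72 ± 0.24) at a level of only 25.7 to 44.6 FPKM in OEx and 95.5 to 148 FPKM in Ctrl mice.

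Rpl5 and Rpl11 enter the large subunit together with the 5S rRNA, and outside the ribosome bind Mdm2, the ligase that degrades Trp53. Rpl11 had 253, 282 and 256 FPKM in OEx and 601, 613 and 737 FPKM in Ctrl mice, and was called lower at -1.29 ± 0.11 (limma FDR 1.31e-04). Rpl5 had 360, 335 and 318 FPKM in OEx and 357, 357 and 445 FPKM in Ctrl mice. The groups overlapped for Rpl5, whose log2 fold change was -0.19 ± 0.12 (limma FDR 0.207). Of the Rpl5 transcript, 93.8% of all windows of 50 bases also occur in transcripts of other annotated genes, and 62.2% of those of Rpl11 do. Either strand was counted, and so were genes that overlap at the same place. For Rpl5, 48.5% of windows occur in the pseudogene Gm15500, and 26.7% of exonic bases are also exonic in Fam69a on the other strand. A read from a window that recurs elsewhere in the genome cannot be placed on 1 gene by its sequence.

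Rpl4, which lines the tunnel through which the new chain leaves, differed less than most members. It had 853, 840 and 865 FPKM in OEx and 1112, 1093 and 1076 FPKM in Ctrl mice, so the groups did not overlap but the log2 fold change was only -0.36 ± 0.09 (limma FDR 0.0108). Over the 9 genes of the tunnel and its rim, which include Rpl19, 5 were called lower at a median of -1.06. This lies near the whole family, with 49 of 85 called at a median of -1.06, where 15.7% of all tested genes were called lower. Rpl7a, a protein of the large subunit surface, had 120, 169 and 79.4 FPKM in OEx and 125, 116 and 241 FPKM in Ctrl mice, with overlapping groups and a limma FDR of 0.396.

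**Figure D3:**
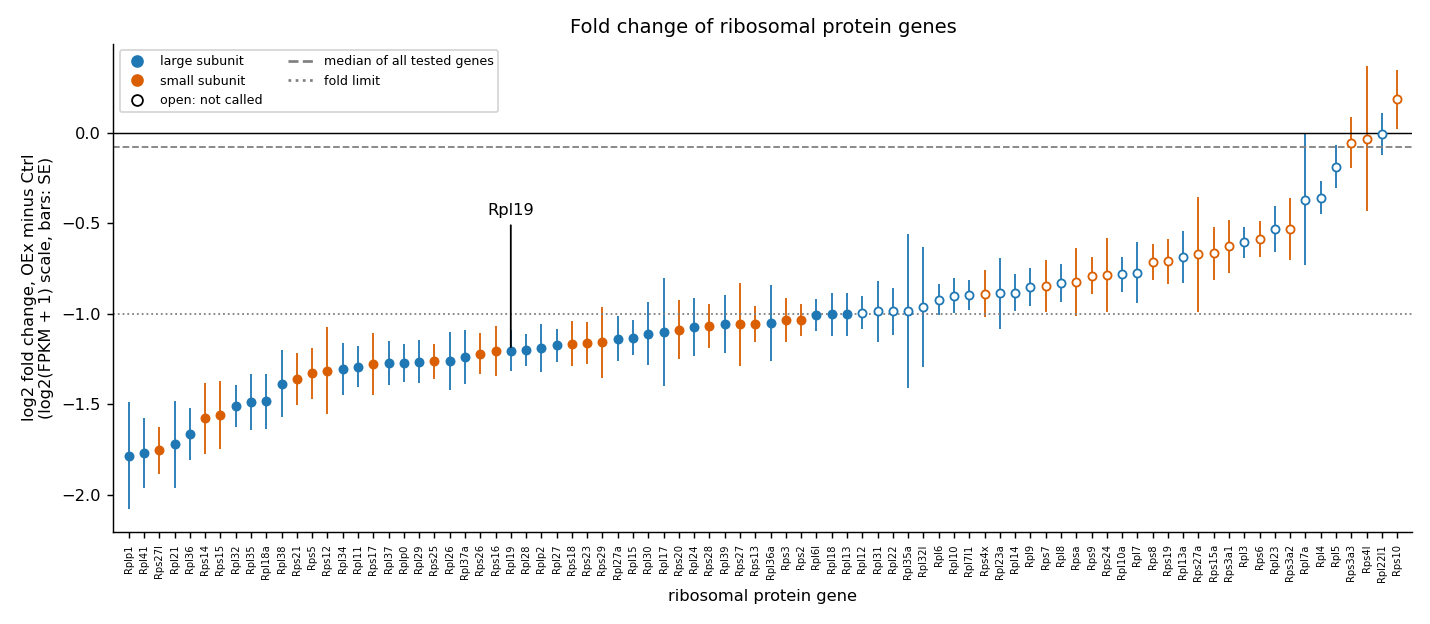
Log2 fold change with its SE for 84 of the 85 tested members in order, with large subunit genes in blue, small subunit genes in orange and open symbols for genes that were not called. The line at -0.08 is the median of all tested genes, and Rpl19 is marked at -1.20; these fold changes are at the deposited scaling and their medians lie at 0.12 and 0.15 when Rpl19 is set equal.

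Among small subunit genes, 20 of 35 tested members were called lower (15.7% of all tested genes), with log2 fold changes from -1.75 to 0.18. The proteins of the head gave 9 calls of 11 at a median of -1.16, and those of the body and platform 8 of 17 at a median of -0.89. Whether these groups differ was not tested. Rps15, a head protein near the decoding centre, had 1149, 1131 and 933 FPKM in OEx and 2784, 2767 and 4048 FPKM in Ctrl mice, at -1.56 ± 0.19 (limma FDR 4.42e-04). Rps14, a platform protein, had 748, 803 and 721 FPKM in OEx and 1981, 1913 and 3051 FPKM in Ctrl mice, at -1.58 ± 0.20 (limma FDR 5.08e-04). For both genes Ctrl replicate 3 stood highest, at 1.46 and 1.57 times the mean of the other 2 Ctrl mice.

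Rps3a1, the third most abundant small subunit gene after Rps15 and Rps14, had 1252, 1164 and 1050.2 FPKM in OEx mice and 1636, 1629 and 2123 FPKM in Ctrl mice. Its groups did not overlap, but at -0.63 ± 0.15 (limma FDR 0.00849) it stayed within the fold limit. Over the 77 core genes the log2 fold change had a Spearman rho of -0.41 with the Ctrl level, so genes more abundant in Ctrl mice tended to lie lower. The Ctrl level is also a term of the fold change, so noise in Ctrl values alone can push this rho below 0. The log2 fold change had a rho of 0.41 with transcript length and of -0.38 with GC content. It had a rho of 0.41 with transcript length and of -0.38 with GC content. These are descriptions across genes of the same 6 libraries, and level, length and base composition also go with each other. Of the 27 core genes with the shortest transcripts (383 to 794 bases), 24 were called lower at a median of -1.22. Of the 25 in the middle (830 to 1109 bases), 11 were called at a median of -0.900. Of the 25 with the longest (1158 to 5179 bases), 12 were called at a median of -0.995, so these medians did not run in order of length. The share called lower over all tested genes was 15.7%.

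**Figure D4:**
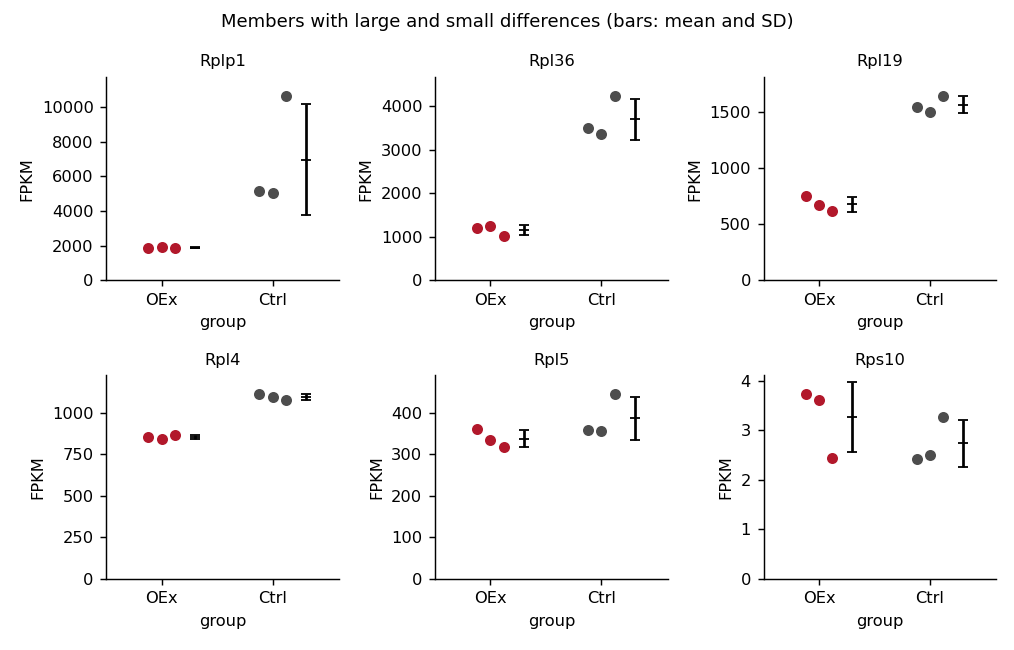
FPKM of 6 members in each OEx mouse (red) and each Ctrl mouse (grey), on axes that start at 0, with the mean and SD of the 3 mice of a group beside the points. The groups lie apart for Rplp1, Rpl36, Rpl19 and Rpl4 and overlap for Rpl5 and Rps10.

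Rpl19 stood within the family as one of its abundant members and differed between the groups like most of them. It had 749, 676 and 615 FPKM in OEx mice and 1548, 1500.4 and 1647 FPKM in Ctrl mice, or 680 ± 67.2 against 1565 ± 74.5 (SD, n = 3). The log2 fold change was -1.20 ± 0.11 (limma FDR 1.67e-04), between -1.28 and -1.13 when 1 mouse was left out. Rpl19 ranked 10 of 85 by mean FPKM and 27 of 85 from the lowest fold change. Under library totals its log2 fold change was -0.42 with a limma FDR of 0.0543. Relative to the median of all genes it lay between -1.24 and -0.65 under all settings, of which those that only rescale a mouse are no check.

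Within a mouse, where any scaling between mice drops out, Rpl19 was 2.15, 2.08 and 2.03 times the median member in OEx mice and 2.50, 2.49 and 2.28 times in Ctrl mice. On the log2 scale Rpl19 was 0.21 lower relative to the median member in OEx than in Ctrl mice, 1.06 ± 0.04 against 1.28 ± 0.08 (SD, n = 3), with no overlap. Rpl19 was not the only member of which this held. Of the 77 core genes, 47, Rpl19 among them, had no overlap in this measure, 31 lower and 16 higher in OEx mice. The measure was taken for members only, so no share over all tested genes stands beside this count. In FPKM itself, the groups did not overlap for 4998 (OEx lower) and 4292 (OEx higher) of the 12833 genes tested. With 3 mice against 3 an exact permutation test cannot give a p below 0.1, and none was run. When all mice were scaled to equal Rpl19, as in the qPCR, 45.3% of all tested genes were called higher and 2.86% lower, and the median of all genes was 0.89. In that scaling 0 members were called lower and 4 were called higher, which were Rpl5, Rpl22l1, Rps10 and Rps4l. Rpl19 lies on chromosome 11 at 98026710 to 98030492 (GRCm38, plus strand). Of its transcript windows, 79.3% recur in other genes, most of them in the processed pseudogene Rpl19-ps11, which was itself listed at 36.6 to 41.8 FPKM in OEx and 103 to 117 FPKM in Ctrl mice.

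Other genes in common use as qPCR references did not share 1 direction. Of 12, limma called 4 lower and 2 higher, at a median log2 fold change of -0.37, where 15.7% and 12.9% of all tested genes were called. B2m, the light chain of MHC class I, was higher (1.61 ± 0.19), as was Tfrc, the transferrin receptor (1.45 ± 0.13), and Gusb, a lysosomal glucuronidase, was lower (-1.52 ± 0.14). Rpl19 lay below 9 of these 12 genes in log2 fold change at the deposited scaling.

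Paralogs that can take the place of a core protein in some tissues differed among themselves. Rps27l, a paralog of Rps27 that Trp53 induces, was called lower with 98.0, 90.1 and 92.4 FPKM in OEx and 293, 287 and 382 FPKM in Ctrl mice, at -1.75 ± 0.13 (limma FDR 7.33e-05). Its log2 fold change was the lowest among the small subunit genes. Rpl22l1, a paralog of Rpl22, had 23.6, 22.7 and 22.6 FPKM in OEx and 21.3, 21.1 and 27.5 FPKM in Ctrl mice. These values overlapped and gave -0.01 ± 0.12, while Rpl22 itself was at -0.99 ± 0.13. Rpl7l1, a nucleolar relative of Rpl7, was at 17.9 ± 0.73 against 34.2 ± 1.93 FPKM (SD, n = 3), with -0.90 ± 0.08 and an FDR of 1.41e-04 in limma but within the fold limit. Rps4l, annotated as a transcribed pseudogene, had 7.75 to 19.2 FPKM in OEx and 10.5 to 22.8 FPKM in Ctrl mice. Rpl3l, the striated muscle form of Rpl3, did not reach 1 FPKM in any mouse, and Rpl10l and Rpl39l, both known from the testis, were listed at 0 in all 6. So was the pseudogene Rps12l1, which with these 3 makes up the 4 members under the filter.

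Several members are hard to count because other annotated genes hold the same sequence. Of the 77 core genes, 71 had a mean above 100 FPKM, while Rps10, Rpl24 and Rpl13a had 2.42 to 20.5 FPKM in every mouse. Rps10, a head protein, had 3.73, 3.61 and 2.45 FPKM in OEx and 2.42, 2.51 and 3.27 FPKM in Ctrl mice, from 70 to 191 reads, with a limma FDR of 0.348. Of its exonic bases, 28.7% are also exonic in the read-through gene RPS10-NUDT3, as are 47.0% of those of Rpl24 in Gm28037 and 35.4% of those of Rpl13a in Gm45713. These 3 partners were listed at 0 in every mouse. Rpl24, which bridges the subunits, was called lower all the same (-1.07 ± 0.16, 5.24 ± 1.07 against 12.05 ± 1.66 FPKM). Rpl13a was at 12.1 ± 2.35 against 19.9 ± 0.72 FPKM, with -0.69 ± 0.14. The part of this overlap in the low values was not tested.

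The pseudogene rows of the family lay at low levels, and 1 of the 5 tested was called. This was Rpl6l, a copy of Rpl6, at -1.01 ± 0.09 with 58.8 to 67.7 FPKM in OEx and 123 to 134 FPKM in Ctrl mice. Rps3a2 and Rps3a3, copies of Rps3a1, had 6.37 to 14.4 and 4.93 to 7.20 FPKM, and Rpl32l had 0.00 to 2.81 FPKM from at most 14 reads. Outside the symbol rule, 60 further pseudogenes were the closest match of a member, and 53 of these were tested. All 53 had log2 fold changes below 0, at a median of -1.03, and 28 were called lower (15.7% of all tested genes). Where fewer than 50% of the windows of a core gene were shared, 29 of 41 genes were called lower at a median of -1.16. Where at least 50% were, 18 of 36 were called at a median of -0.996, and all 4 core genes with overlapping groups (Rpl5, Rpl7a, Rps10, Rps27a) were among these. Rpl5, Rpl7a and Rps10 were named by a rule on their rank, while Rps27a was picked once its values were known.

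The TOP tract was looked for at the annotated start of each gene, as a C on the start base followed by at least 4 C or T, on the strand of the gene, in RefSeq promoters of GRCm38.p6. Of 64 members with an entry, 14 (21.9%) had it, against 3.01% of 27025 genes. Of these 14, 8 were called lower at a median log2 fold change of -1.09, and of the other 47 tested, 26 were called at a median of -1.03. The share called lower over all tested genes was 15.7%. Windows of 30 bases, from 10 before the start, are shown for 4 members with the tract in capitals and for Rpl19, whose annotated start does not have it. Rpl35 and Rps21 were among the called genes and Rps6 was not, so the tract was present in genes with larger and with smaller changes. Rps10 had overlapping groups, but at only 2.42 to 3.73 FPKM from 70 to 191 reads. A start without the tract says only that these letters do not stand at this annotated base.
Rpl35 (chr2:39005112-39005141, minus strand): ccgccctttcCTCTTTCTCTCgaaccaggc
Rps21 (chr2:180257369-180257398, plus strand): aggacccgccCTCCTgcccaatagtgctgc
Rps6 (chr4:86857348-86857377, minus strand): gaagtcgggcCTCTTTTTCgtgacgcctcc
Rps10 (chr17:27635225-27635254, minus strand): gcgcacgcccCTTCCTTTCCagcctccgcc
Rpl19 (chr11:98026700-98026729, plus strand): aaacgccctcactgcgcatgtgcgccgcgg
Rps6, the small subunit protein that S6 kinases phosphorylate, had 886, 812 and 772 FPKM in OEx and 1255, 1213 and 1236 FPKM in Ctrl mice, at -0.59 ± 0.10. Rpl35, at the rim of the exit tunnel, had 262, 272 and 225 FPKM in OEx and 636, 643 and 872 FPKM in Ctrl mice, at -1.49 ± 0.16. Rps21, in the body of the small subunit, was at -1.36 ± 0.14. Rps6 was chosen for its tract after its values were seen, as were these other windows.

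Ribosomal proteins with other names, and other genes of ribosome production, were compared at the deposited scaling. Fau, whose product is cut into a ribosomal protein of the small subunit, was called lower (-1.42 ± 0.15, 943 ± 60.0 against 2545 ± 439 FPKM). Rack1, a scaffold on the small subunit head, and Rpl36al were at -0.88 ± 0.10 and -0.95 ± 0.12 and were not called. In these 3 genes the groups did not overlap, with OEx mice lower. Of 13 other genes with a TOP tract in their messages, 1 was called lower and 2 higher at a median of -0.59, where 15.7% and 12.9% of all tested genes were. Of these 13, 10 had log2 fold changes below 0. By a limma FDR under 0.05 alone, 9 were lower and 2 higher, as were 4680 and 3941 of the 12833 genes tested. Eef2, the factor that moves the ribosome along the message, was the one called lower (-1.08 ± 0.16). Nap1l1 and Hnrnpa1 were called higher (1.72 ± 0.21 and 1.18 ± 0.10).

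Of 53 factors that assemble ribosomes, 7 were called lower and 7 higher, at a median log2 fold change of 0.12. These shares lie near those of all tested genes, of which 15.7% were called lower and 12.9% higher. Npm1, a nucleolar chaperone, rose from 38.8 ± 5.83 FPKM in Ctrl to 129 ± 8.53 FPKM in OEx mice (1.71 ± 0.12), while Imp3, of the small subunit processome, fell (-1.69 ± 0.10), as did Nop10, of the box H/ACA particles (-1.62 ± 0.11). Of 14 genes for RNA polymerase I and its factors, which make ribosomal RNA, 1 was called in each direction at a median of 0.02, a share under that of all tested genes (15.7% lower and 12.9% higher). Taf1d, a promoter factor, rose (1.72 ± 0.11) and Polr1d, a subunit shared with polymerase III, fell (-1.01 ± 0.08), while Twistnb, another subunit, was at 0.96 ± 0.11. Among 13 tested regulators of ribosomal protein production, 2 were called lower and 1 higher, which is no more than the 15.7% and 12.9% of all tested genes. Mycl, a member of the Myc family, fell (-1.93 ± 0.30), as did Eif4ebp1, an mTOR target that blocks translation (-1.24 ± 0.11), and Rps6kb1, the S6 kinase, rose (1.02 ± 0.13).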

How the data were processed

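RNA-seq of the anterior prostate of 3 OEx and 3 Ctrl mice was read from 1 table per sample. Each sample was taken as 1 mouse, which the labels do not state, so p-values measure the spread between these samples. The authors deposited FPKM values by gene symbol, made with an in-house pipeline. The submitters' processing notes name CASAVA, HISAT2 2.0.5, StringTie 1.3.3b and featureCounts 1.5.0-p3. The genome build and the use of strand are not given in the sources used here. Symbols were matched to GENCODE M21 (GRCm38), which placed 53710 of 55076 rows and all 89 members. Reads were recovered from FPKM and exon length, and 96.9% to 97.5% of values under 1000 reads were whole within 0.05 reads. At these depths 3 reads are 0.161 to 0.203 CPM, a floor for counting error only.

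OEx and Ctrl were compared with limma 3.58.1 (R 4.3.3, eBayes with an intensity trend, Benjamini-Hochberg adjustment) on log2(FPKM + 1), which understates changes of low genes, for the 12833 rows whose mean reached 1 FPKM. The criteria, an FDR under 0.05 and a fold change above 2, are those of the study. Alternatives changed the pseudocount (0.1), the filter, the scaling, the test (limma-voom on recovered reads), or the mice, or removed lowess trends (span 0.3). Upper-quartile scaling used the 0.75 quantile of the tested rows. Shared sequence was counted in windows of 50 bases over GENCODE transcripts of other genes, on either strand and with genes at the same place included. The recovery of reads, the limma fits with and without a replicate block, limma-voom and the lowess removal of a length trend were tested on simulated data. The other scalings, the shared windows and the search for the tract were not. Tables and plots used Python 3.11.15, pandas 2.3.3 and matplotlib 3.10.9.

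Members and lists were chosen with earlier results of these data known. Genes named are Rpl19, the 3 most and least abundant and the 4 lowest and 4 highest in log2 fold change of each subunit, paralogs, stalk and 5S members, members under the filter, up to 3 genes of every other list with the largest changes, and Notch1. Other genes named were chosen after their values were seen. Replicate numbers run from 1 to 3 in both groups, but same-numbered mice did not deviate together (correlations -0.307 to -0.189), so the comparison was unpaired. A few genes of the rule and lists are not reported here.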

Additional observations from a re-analysis of the deposited data

How the results depend on the processing

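The count of members called lower (49) was 1 under library totals, 13 under totals without the 20 most abundant genes, 17 under upper-quartile scaling, 28 with a GC trend removed, 9 with an exon length trend removed, 0 under Rpl19 scaling and 77 by FDR alone, and 39 to 54 when 1 mouse was left out. Of all 12833 genes tested, 2021 were called lower at the deposited scaling and 4680 by FDR alone. The count was 589 under library totals, 1205 without the 20 most abundant genes and 1326 under upper-quartile scaling. It was 1524 with GC removed, 1443 with length removed, 367 under Rpl19 scaling, and 1987 to 2043 when 1 mouse was left out. Members called higher were 4 under Rpl19 scaling, where 5812 of all tested genes were, and 0 under every other alternative. The median of the large subunit (-1.05) was -0.30 under library totals, -0.74 without the 20 most abundant genes, -0.80 under upper-quartile scaling, -0.84 with GC removed, -0.68 with length removed and 0.12 under Rpl19 scaling. That of the small subunit (-1.06) was -0.28, -0.72 and -0.78 under the 3 scalings, -0.67 with length removed and 0.15 under Rpl19 scaling. Rpl19 (-1.20) kept its direction but missed the fold limit under library totals (-0.42), totals without the 20 most abundant genes (-0.86), upper-quartile scaling (-0.92), GC (-0.81) and length (-0.68) removal. All genes called (3674) were 6179 under Rpl19 scaling and 8621 by FDR alone. The causes of these shifts were not tested, other than that Rpl19 scaling sets Rpl19 to 0. With the replicate number as a block, which the labels do not support as a pairing, 49 members and 3597 genes were called. The pseudocount, both filters and limma-voom changed no call count of members. Depth limits only the lowest members, such as Rpl32l with 0 to 14 reads.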
